A study of Cucumis sativus with 33 samples.

Results

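Corollas of super ovaries on day 5 (S5), the last green yellow bud sampled on that course, were set against corollas of normal ovaries on day 3 (N3), the green yellow bud of the normal course. The comparison matches bud stage by name and lets the day differ. It rests on 6 of the series' 33 RNA-seq libraries, 3 per group, identified by the ovary type and day in the library labels. All 6 came from the cucumber inbred line 6457 (Cucumis sativus), a line that sets fruit largely without pollination, and from bagged female flowers at the top of the main stem. Plants of S5 were well fed and watered and set just 1 fruit, from the female flower closest to the shoot tip. Plants of N3 were kept short of fertilizer and water and set 1 or 2 fruits from other flowers. Nutrition, fruit load and ovary type thus cannot be told apart, and neither can these from the difference in age between 5 and 3 days after the ovary was labeled. Each library pooled 5 corollas. Most flowers of super ovaries open on day 9 and most of normal ovaries on day 5.

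The corolla is the whorl of petals. In cucumber it forms as a green bud with working chloroplasts, turns yellow as chloroplasts give way to chromoplasts rich in carotenoids, and opens when its cells expand quickly with water and sugar drawn into them. Gibberellin, auxin, ethylene and jasmonate are known to act on petal growth and opening. In flowering plants the timing of opening is also tied to the supply of sugars. The deposited identifiers could not be joined to gene names, as 0 of 23248 matched a table of 23999 RefSeq genes. No gene below is therefore given a role, no pathway or marker list could be formed, and the corolla label was not checked against marker genes. At most 2 genes are named in each direction.

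The deposited unit is RPM, a gene's reads scaled to a fixed library total. The 6 libraries held 18052549 to 22615868 reads, as recovered from the steps between low values. Replicates correlated across genes at 0.993 to 0.997, and each pair differed by more than sampling noise (chi-square per degree of freedom 5.2 to 12.7), so all were kept as separate samples. The labels do not say whether the pools came from separate plants, so the spread behind the p-values may be technical. For single genes, limma took that spread from the pools of all 11 groups of the series, not from S5 and N3 alone.

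The position of each library on the normal course was measured first, by projecting it on the axis between the N1 and N5 means (N1 at 0, N5 at 1), which uses neither S5 nor N3. The S5 libraries stood at 0.305, 0.294 and 0.253 and the N3 libraries at 0.393, 0.375 and 0.414. The groups did not overlap, and S5 lay on the green bud side of N3. The means were 0.284 ± 0.028 in S5 and 0.394 ± 0.020 in N3 (SD, n = 3 each), a difference of -0.110. An exact permutation test, two-sided, gave p = 0.1, the smallest that 3 against 3 allows. Along the super course the means were -0.007 in S1, 0.106 in S3, 0.195 in S4, 0.284 in S5, 0.597 in S7, 0.928 in S8 and 1.041 in S9, so N3 fell in the gap between days 5 and 7 of the super course. S5 replicate 3 was the lowest of its group. It was also the S5 library least like N3, correlating at 0.952 to 0.958 across genes with the N3 libraries and at 0.939 to 0.947 with those of N1. Genes are not independent replicates in these correlations.

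**Figure D1:**
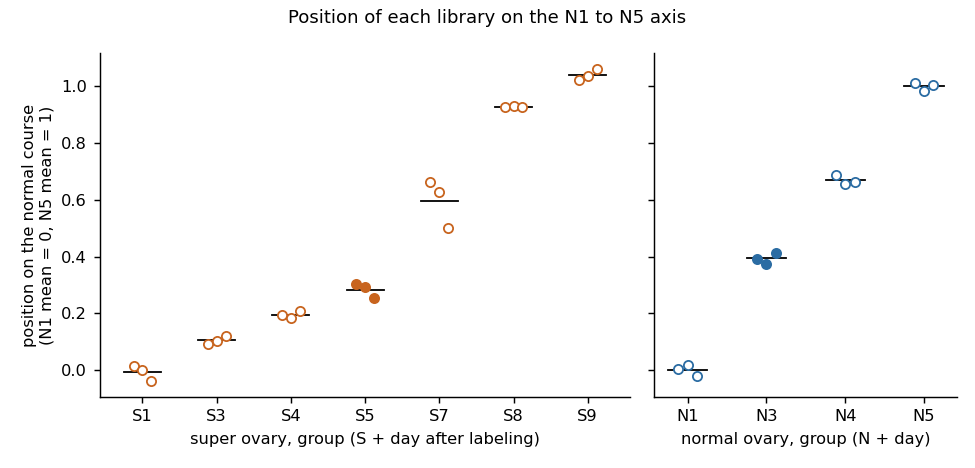
Position of every library on the axis from N1 (0) to N5 (1), for super ovaries (left) and normal ovaries (right); points are libraries, bars are group means, and filled points are S5 and N3. The S5 libraries, at 0.253 to 0.305, lie under the N3 libraries, at 0.375 to 0.414, and above those of S4.

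Between S5 and N3, 755 genes were higher and 601 lower in S5, which is 7.17% of the 18905 genes tested (3.99% higher and 3.18% lower). A gene was called at a limma adjusted p under 0.05 (Benjamini-Hochberg) and a change of at least 2-fold on the log2(RPM + 1) scale, a scale that understates the change of low genes. On this scale the strongest changes were on the higher side. A difference of 4-fold or more was seen in 114 of the higher genes, one of 8-fold in 45 and one of 16-fold in 17. Among the lower genes 108 reached 4-fold, 12 reached 8-fold and 0 reached 16-fold. These fold counts were made on this scale only. By edgeR on recovered reads the lower gene Csa6G492310 had a log2 difference of -4.43, which is past 16-fold. In corollas, which are mixed tissue, less RNA per cell and fewer cells of a type cannot be told apart.

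The split between higher and lower genes rested on the scaling. The median of all genes tested was 0.20 higher in S5 on the log2 scale as deposited. Once the median gene ratio was used to rescale each library, 410 genes were higher (2.17% of those tested) and 868 lower (4.59%) in S5, so that 32.1% of the calls were higher against 55.7% as deposited. The scale factors were 1.155 to 1.179 in S5 and 0.983 to 1.011 in N3, so rescaling moved the differences down together. Such a shared shift leaves little room for a call to change direction, and none did. The 410 were all among the 755, the 601 were all among the 868, and 345 higher calls were lost while 267 lower ones were gained. The 410 and 601 genes are the ones called in the same direction on both scalings. Because of the shared shift, this overlap does not test how robust the calls are.

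**Figure D2:**
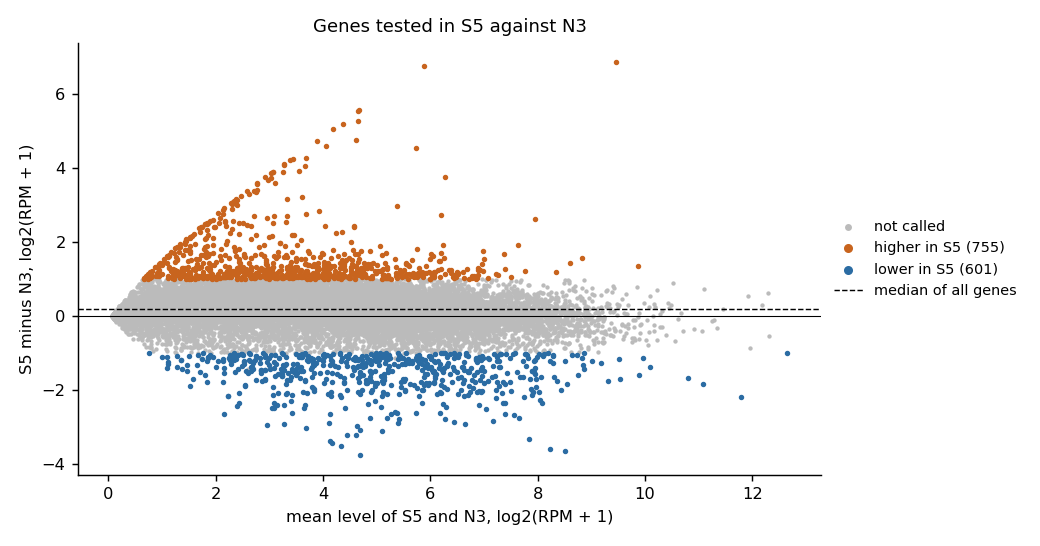
Difference between S5 and N3 (y axis, log2(RPM + 1)) against the mean level of both groups (x axis, log2(RPM + 1)) for the 18905 genes tested; orange points are called higher and blue points lower in S5. The 755 higher genes reach differences of 6.85, the 601 lower genes -3.76, and the dashed median of all genes lies at 0.20.

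The lower genes were the more abundant ones. Over all 33 libraries, 145 of the 601 lower genes (24.1%) averaged 100 RPM or more, against 36 of the 755 higher genes (4.77%) and 12.6% of all genes tested. The lower genes together made up 2.68% to 3.31% of an S5 library and 8.25% to 8.87% of an N3 library. The higher genes made up 2.4% to 2.69% of an S5 library and 0.805% to 0.946% of an N3 library. These shares describe genes that were chosen by the same values.

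Gene Csa3G104850 came first, on log2(RPM + 1) with all libraries, under the rule for named genes, which took called genes at a mean of 10 RPM or more whose 6 libraries did not overlap. It had 1185, 1414 and 1551 RPM in S5, against 27.5, 48.4 and 0.22 RPM in N3. All S5 libraries were high, while the N3 libraries were spread from near the counting limit of 3 reads to 48.4 RPM. The log2 difference was 6.85 (SE 1.14, limma adjusted p 1.9e-05). It was 5.20 without N3 replicate 3, the library at 0.22 RPM, and summed reads put S5 50.9 times higher (95% exact interval 48.5 to 53.5, counting error only). The gene was already high on the first day of the super course, at 524, 87.0 and 662 RPM in S1, against 0.26, 0.10 and 32.5 RPM in N1, a difference of 6.44 (SE 1.14, limma adjusted p 3.9e-04). It peaked in S4 at 1953 ± 388 RPM (SD, n = 3), stood at 430 ± 210 in S7 and ended at 2.27 ± 2.02 in S8 and 0.60 ± 0.31 in S9. At flowering the order was turned round, with 0.59, 0.91 and 0.29 RPM in S9, against 126, 44.2 and 165 RPM in N5 (difference -5.97, SE 1.14, limma adjusted p 1.4e-04).

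Gene Csa2G292830 was the second of the higher genes. It had 102, 95.6 and 150 RPM in S5, against 0.05, 0.04 and 0.11 RPM in N3, where 1 read was recovered over the 3 libraries. Its log2 difference was 6.75 (SE 0.42, limma adjusted p 2.2e-11), and the ratio of summed reads, 6588 to 1, was 6980 with a 95% exact interval of 1252 to 275722. It stood ahead of Csa3G104850 by summed reads, by edgeR (12.10 against 5.56) and without N3 replicate 3 (6.78 against 5.20). Unlike Csa3G104850 it started near the counting limit in both courses, at 0.06 ± 0.03 RPM in S1 and 0.07 ± 0.04 in N1 (SD, n = 3 each). It climbed through 4.87 ± 2.44 RPM in S3 and 68.2 ± 32.9 in S4 to 116 ± 29.7 in S5 and 114 ± 57.6 in S7, and came down to 0.88 ± 0.90 in S8. In the normal course it passed 1 RPM in 1 of the 3 N4 libraries, at 1.52 RPM, and reached 13.2, 3.08 and 8.31 RPM in N5.

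Gene Csa6G492310 was the first of the lower genes. It had 2.58, 2.12 and 3.04 RPM in S5, against 47.7, 46.3 and 47.6 RPM in N3. Both groups were tight and far apart. The log2 difference was -3.76 (SE 0.61, limma adjusted p 1.4e-05), and by summed reads S5 stood at 0.0535 of N3 (95% exact interval 0.0449 to 0.0632). In the normal course it did not move one way, with 5.66 ± 2.23 RPM in N1, 47.2 ± 0.80 in N3, 1.15 ± 0.58 in N4 and 130 ± 23.7 in N5 (SD, n = 3 each). In the super course it stayed between 1.68 and 3.31 RPM on average from S3 to S5 and then stood at 15.1 ± 11.5 in S7, 31.3 ± 11.3 in S8 and 47.4 ± 4.93 in S9. In S8 it was thus above N4 (difference 3.89, SE 0.61, limma adjusted p 4.6e-06), the opposite of its order in S5 against N3.

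Gene Csa6G423990 was far more abundant. It had 77.0, 63.6 and 29.7 RPM in S5, against 734, 647 and 637 RPM in N3. The highest S5 library was far under the lowest N3 library, and the difference was -3.65 (SE 0.37, limma adjusted p 3.1e-08). In S5 it was still near the N1 level of 50.6 ± 21.7 RPM (difference from N1 0.13, SE 0.37, adjusted p 0.788 by limma). By day 7 the super corollas held 947, 585 and 267 RPM, within a 2-fold change of N3 on average (difference -0.34, SE 0.37, adjusted p 0.455 by limma). The normal yellow bud, N4, held more, at 1336 ± 24.6 RPM (SD, n = 3). Against N4 the gene was lower in S7 (difference -1.34, SE 0.37, limma adjusted p 0.00272). It was also lower in S8 (difference -1.15, SE 0.37, limma adjusted p 0.00991). Its flowering levels, 408 ± 54.6 RPM in S9 and 435 ± 37 RPM in N5, were not called different.

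**Figure D3:**
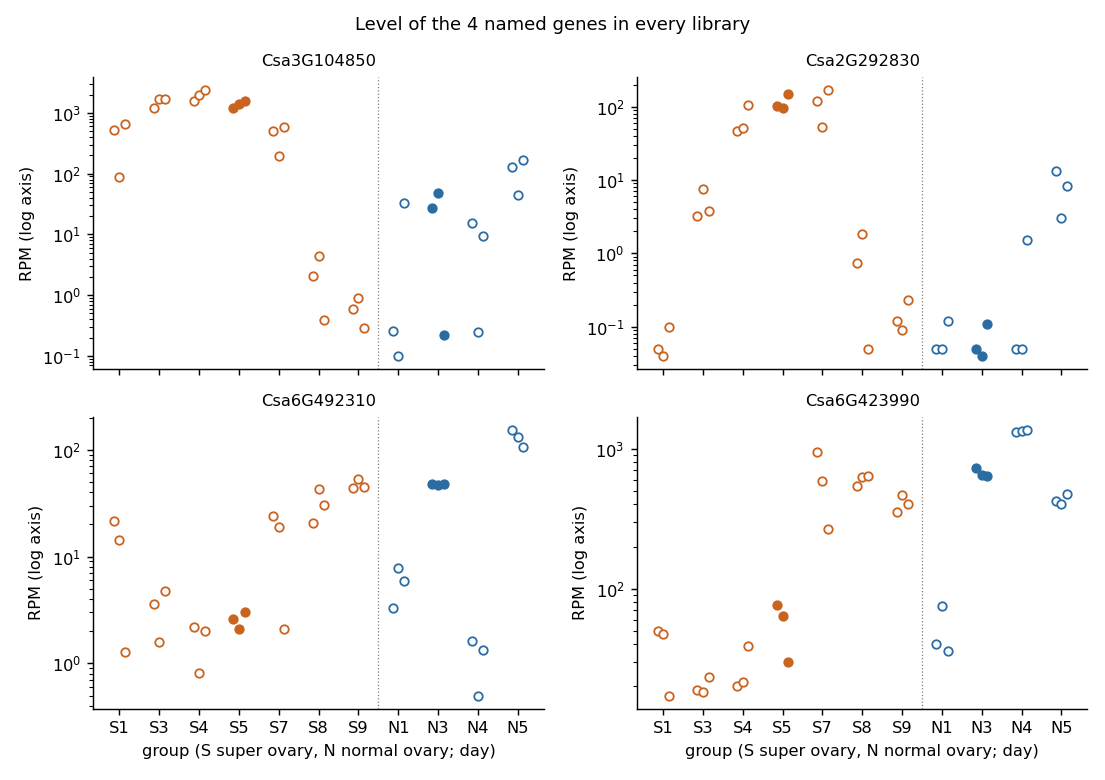
RPM (log axis) of the 4 named genes in every library, with super ovaries left of the dotted line and normal ovaries right of it; filled points are S5 and N3. Csa3G104850 is high from S1 to S7 and Csa2G292830 from S4 to S7. Csa6G492310 and Csa6G423990 are lower in all S5 than in all N3 libraries. In the later super libraries Csa6G423990 is above its S5 levels from S7 and Csa6G492310 from S8.

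Where the called genes lie on the course of opening was read from N5 against N1, whose libraries are not those of S5 or N3, though the fit shared each gene's variance. Genes that were lower in S5 were mostly higher in the open flower than in the green bud. This compares end points only. The normal course between them was not a steady rise, as the median of these genes was 45.9 RPM in N3 and 14.7 in N4. Of the 601, 347 (57.7%) were higher in N5 than in N1 and 98 (16.3%) lower, against 15% and 26.4% of all genes tested. In S9 against S1 the picture was the same, with 339 higher (56.4%) and 102 lower (17%), against 16.8% and 30.3% of all genes. Genes that were higher in S5 were mixed, since 322 of the 755 (42.6%) were lower in N5 than in N1 and 154 (20.4%) were higher. After rescaling the higher genes were even, with 121 of 410 on either side (29.5% each), against 19.9% higher and 19% lower of all genes, while 61.3% of the 868 lower genes rose from N1 to N5. Falling genes thus outnumbered rising ones among the higher genes as deposited and not after rescaling, as they did among all genes. The shares of falling and of rising genes were both above those of all genes on both scalings. For rising genes they were 20.4% against 15% as deposited and 29.5% against 19.9% after rescaling.

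The medians over the called genes traced different courses. The median level of the 601 lower genes was 21.8 RPM in S1, 15.9 in S3, 13.8 in S4, 15.2 in S5, 29.1 in S7, 43.4 in S8 and 51.8 in S9. In the normal course it was 19 RPM in N1, 45.9 in N3, 14.7 in N4 and 45.6 in N5, so that N4 was low between N3 and N5. The difference between S5 and N3 chose these genes. The other groups entered the choice only through the shared variance and the level a gene needed to be tested. The lowest group mean of the super course was in S4 for 34.3% of the lower genes and in S5 for 14.3%, against 6.02% and 2.25% of all genes tested. For the 755 higher genes the median was 9.69 RPM in S1, 10.3 in S3, 13 in S4, 12.4 in S5, 7.59 in S7, 5.28 in S8 and 5.47 in S9, against 8.3 in N1, 3.49 in N3, 2.95 in N4 and 3.56 in N5. Over all genes tested the median went no higher than 23.8 RPM (S1) and no lower than 14 RPM (N4).

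Whether the same genes separate the ovary types at other stages was read from comparisons that share no library with S5 or N3. At the green bud stage, 56 of the 755 higher genes (7.42%) were also higher in S1 than in N1 and 6 were lower, where 0.973% of all genes tested were higher and 0.27% lower. The 56 are 30.4% of the 184 genes higher in S1. Of the 601 lower genes 10 (1.66%) were lower in S1 too, and 6 without S5 replicate 3, and 2 were higher. At flowering, 143 of the higher genes (18.9%) were higher in S9 than in N5 and 28 (3.71%) were lower, against 2.93% and 2.25% of all genes. The 143 make up 25.9% of the 553 genes higher in S9. The lower genes were split at flowering, with 39 (6.49%) lower and 38 (6.32%) higher in S9. In all, 3 genes were called higher at the green bud, green yellow bud and flowering stages alike and 1 was called lower at all of them. The green bud comparison limits these counts, since 0.973% of all genes tested were higher there and 0.27% lower. A gene that was not called can still differ.

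At the yellow bud stage the lower genes were mostly on the other side. Of the 601, 347 (57.7%) were higher in S8 than in N4 and 65 (10.8%) were lower, against 9.51% and 4.45% of all genes tested. In S7 against N4, which also uses N4, 251 (41.8%) were higher and 49 (8.15%) lower, against 11.6% and 4.05%. Of the 347 genes, 265 were also higher in N5 than in N1, where 15% of all genes tested were. The share among all genes higher in S8 than in N4 is not given, so this overlap is a description. After rescaling, 437 of 868 lower genes (50.3%) were higher in S8 than in N4 and 120 (13.8%) lower, against 8.83% and 6.01% of all genes. In S7 against N4 the rescaled contrast was weaker, with 249 (28.7%) higher and 153 (17.6%) lower, against 6.68% and 7.43% of all genes. The higher genes kept their side more often than they lost it, with 192 (25.4%) higher and 61 (8.08%) lower in S8 than in N4. On the axis of the normal course S8 stood at 0.928, N4 at 0.669 and S7 at 0.597, so on average S8 was further along it than N4 and S7 was not. The part that position has in these counts was not tested.

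**Figure D4:**
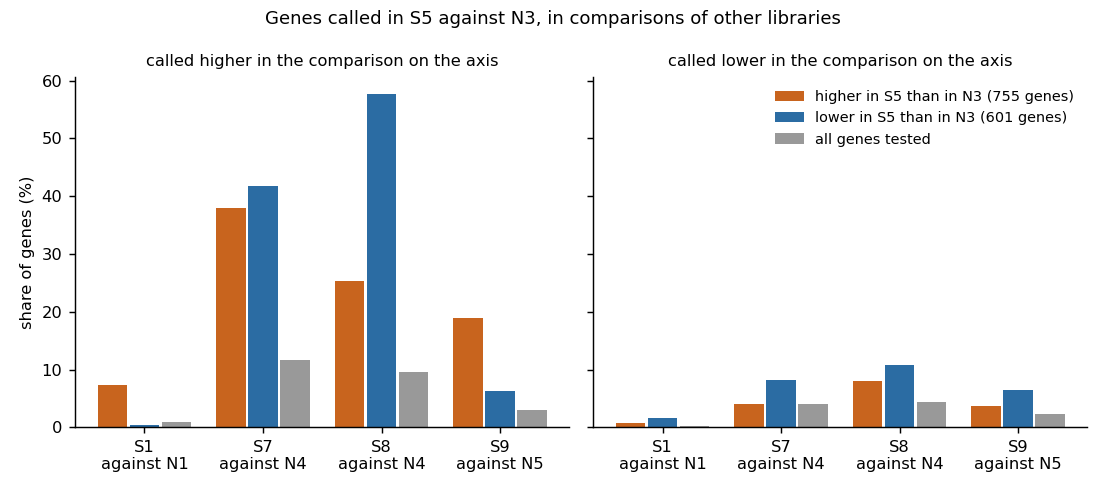
Share of genes (%, y axis) called higher (left panel) or lower (right panel) in 4 comparisons of other libraries, for the 755 genes higher in S5 than in N3 (orange), the 601 lower ones (blue) and all 18905 genes tested (grey). Of the lower genes 57.7% are higher in S8 than in N4, and of the higher genes 18.9% are higher in S9 than in N5.

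Levels in S5 that were found on no sampled day of the normal course were counted next. In 320 of the 755 higher genes (42.4%) all 3 S5 libraries were above all 12 libraries of N1, N3, N4 and N5, a state that 7.63% of all genes tested showed. In 34 of the 601 lower genes (5.66%) all S5 libraries were below all 12, against 0.889% of all genes. Without S5 replicate 2 the number was 53 of 650 lower genes. That count compares fewer S5 libraries, and no share over all genes is given for it. After rescaling, with all libraries, 199 of 410 higher genes lay above (48.5%, against 3.41% of all genes). Below lay 101 of 868 lower genes (11.6%, against 3.22%). Calls in S5 against N3 enter these counts, so their excess over all genes is a description.

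A group of 27 higher genes was near the counting limit in the normal buds. They were picked out after their values had been seen, as higher genes with at most 3 reads in each of the 11 libraries of N1, N3, N4 and S1 with recovered reads and a mean of 5 RPM or more in S5. Each of the 27 had a mean of 5.12 to 27.4 RPM in S5, with log2 differences from N3 of 2.48 to 4.73 (median 3.14). Summed over the 27 genes, the level was 264, 298 and 285 RPM in S5, against 1.75, 1.6 and 1.92 RPM in N3. The limits that picked the genes fixed this gap, so the sums only describe it.

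On day 3 of the super course 24 of the 27 genes had more than 3 reads in every library, and on day 4 all 27 did in the 2 libraries with recovered reads. Their low reads in S1, N1, N3 and N4 were set by the rule that picked them. In the open flower of the normal course, which the rule did not use, all 27 passed this level in the 2 N5 libraries with recovered reads. Their summed level was 1.78 ± 0.2 RPM in S1, 147 ± 86.1 in S3, 479 ± 148 in S4, 282 ± 17.5 in S5, 256 ± 120 in S7, 386 ± 139 in S8 and 336 ± 188 in S9 (SD, n = 3 each). In N1, N3 and N4 it was 1.89 ± 0.323, 1.76 ± 0.16 and 1.97 ± 0.686 RPM, and in N5 it was 54.2 ± 4.93. At flowering, which shares no library with S5, 21 of them were called higher in S9 than in N5 and 1 lower, where 2.93% and 2.25% of all genes were. Libraries of 1 group differed widely, at 84.8, 245 and 110 RPM in S3 and 176, 543 and 290 RPM in S9, and S3 replicate 2 was the highest of its group for 26 of the 27. Across the 18 libraries from S3 to S9, log2(RPM + 1) values of the 351 gene pairs correlated at a median of 0.75 (range -0.47 to 0.99), a description of libraries that share the super course and span 6 of its groups. What these genes encode is not known from the sources used here, and the part that another tissue in some pools could have in their level was not tested.

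**Figure D5:**
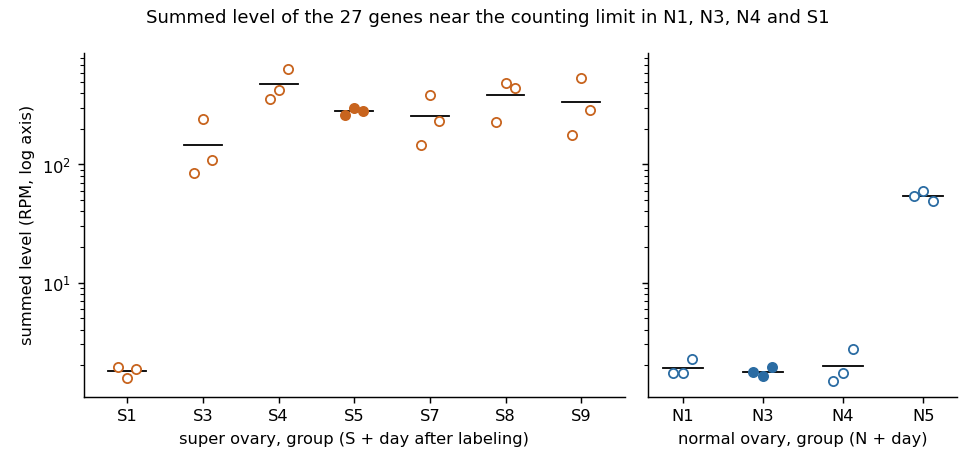
Summed level (RPM, log axis) in every library of the 27 genes with at most 3 reads per library in N1, N3, N4 and S1 that were higher in S5 than in N3, for super ovaries (left) and normal ovaries (right); bars are group means and filled points are S5 and N3. The S5 libraries lie at 264 to 298 RPM, the N3 libraries at 1.6 to 1.92 RPM and the N5 libraries at 49.2 to 59.1 RPM.

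S5 was closer to N3 than the earlier green yellow buds of super ovaries were, by the number of genes called. The total was 2299 in S3, 1846 in S4 and 1356 in S5 against N3, or 12.2%, 9.76% and 7.17% of the genes tested, and it was 1649 (8.72%) in S7. These comparisons share the N3 libraries. The median log2 difference of the 755 higher genes was 1.09 in S3, 1.22 in S4, 1.24 in S5 and 0.60 in S7 against N3, and of the 601 lower genes -1.52 in S3, -1.65 in S4, -1.42 in S5 and -0.82 in S7. S5 and N3 chose the genes and N3 enters each of these medians, so they are given as a description. Set against the other normal groups, S5 differed from N1 in 1999 genes (10.6%), from N4 in 6445 (34.1%) and from N5 in 5980 (31.6%). N3 was thus the normal group with the fewest differences.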

How the data were processed

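The authors deposited 1 table of RPM values (reads scaled to a fixed library total) for 23248 genes in 33 libraries. TopHat and HTSeq were used per the submitters' processing notes. Their versions, the build and the gene models: not given in the sources used here. Whole reads were recovered from the value steps in 30 libraries, S5 and N3 among them, where 100% of values of up to 2000 steps lay no more than 0.25 from a whole number. The first step was read as 0 reads plus 1, since no value was 0 and 1140 genes stood at it in all 30. Limits of 3 reads and intervals cover counting error only. With limma 3.58.1 in R 4.3.3, all 33 libraries entered 1 fit of 11 group means on log2(RPM + 1), with trended moderated variances. Tests covered the 18905 genes that averaged at least 1 RPM in some group, were two-sided, and had p adjusted by Benjamini-Hochberg per comparison. The position was tested by an exact permutation test. Named genes were the 2 with the largest change per direction among called genes at 10 RPM or more without overlap. The comparison, its members and the rules were chosen with earlier results of these data known. The counts against S7, S8 and N4, the medians by group and the set of 27 genes were added after the values were seen. The 10 gene lists rested on descriptions and could not be formed. Alternatives were other pseudocounts, filters, scaling, libraries, a replicate block and edgeR 4.0.16 on recovered reads. The limma and edgeR steps were tested on simulated data.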

Additional observations from a re-analysis of the deposited data

Results flagged for a closer look

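The super minus normal difference was tested against itself at other stages, since it changed with stage. The tests were interactions in the same limma fit, with the same limits as for the calls. Between the green bud stage (S1 minus N1) and the green yellow bud stage (S5 minus N3) it differed in 1662 genes, between the yellow bud (S8 minus N4) and the green yellow bud in 3946, and between flowering (S9 minus N5) and the green yellow bud in 2401, which are 8.79%, 20.9% and 12.7% of the 18905 genes tested. After rescaling the shares were 7.98%, 20.1% and 11.3%.

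The named genes were chosen for their difference in S5 against N3, which biases these tests, so the values describe them. The green bud difference minus the green yellow bud difference was -6.76 for Csa2G292830, 4.29 for Csa6G492310 and 3.19 for Csa6G423990 on the log2 scale. For Csa3G104850 it was -0.40 (SE 1.61) and was not called. The yellow bud difference minus the green yellow bud one was -7.92 for Csa3G104850, -6.45 for Csa2G292830, 7.65 for Csa6G492310 and 2.50 for Csa6G423990. The flowering difference minus the green yellow bud one was -12.81 for Csa3G104850, -9.58 for Csa2G292830, 2.34 for Csa6G492310 and 3.55 for Csa6G423990.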

How the results depend on the processing

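The 4 named genes kept their direction and their call under every alternative that was run. S5 stayed behind N3 on the normal course under every alternative run for it, at -0.121 to -0.094 when 1 library was left out. It was -0.073 at pseudocount 0.1 and -0.131 at pseudocount 5. The fit of the 6 libraries alone, both filters, the fit without S7 replicate 3 and the replicate block moved no count by more than 1.5 times. With the replicate block, 1356 genes were called, as without it. Same-numbered S5 and N3 libraries did not deviate together (correlations of 0.04, -0.04 and -0.03), so the numbers did not pair them. Counts of low genes depended on the pseudocount and on the test. With a pseudocount of 0.1, 2218 genes were called, 1422 of them higher; 655 higher genes fell and 345 rose over the normal course, 170 lower genes fell, 120 and 19 genes were higher and lower in S1 against N1 as well, and 264 and 78 in S9 against N5. With a pseudocount of 5, 681 were called, 273 of them higher; 103 higher genes fell and 38 rose, 50 lower genes fell, 17 and 2 were shared with the green bud and 61 and 16 with flowering, and 143 and 20 lay above and below the normal course. Rescaling left 410 higher genes, of which 121 fell over the normal course, while 532 lower genes rose, and 199 and 101 lay above and below it. By edgeR's quasi-likelihood test on recovered reads, 2086 genes were called, 1127 of them lower; 312 higher and 641 lower genes rose over the normal course and 244 lower ones fell, 111 and 17 were shared with the green bud and 234 and 106 with flowering, 536 lower genes were higher in S8 than in N4, and 66 lay below the normal course. The causes were not tested. For the pseudocounts and edgeR the matching shares over all genes are not given. These counts therefore do not show whether an overlap moved relative to all genes. Leaving out 1 library of S5 or N3 gave 1276 to 1465 calls (669 to 862 higher and 557 to 650 lower). It gave 6 to 12 genes lower in S1 as well (6 without S5 replicate 3) and 31 to 53 below the normal course (53 without S5 replicate 2). The matching shares over all genes are not given here either. The set of 27 genes had 27 members in each fit with 1 library left out, which does not test how stable it is. Its limits on reads and S5 level alone gave 27 genes among all tested, so the call added nothing to the choice. The set had 23 members after rescaling and 25 at pseudocount 5. A difference in genes near 3 reads, 0.177 to 0.222 RPM as deposited, was not detectable at this depth.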
